A study of Mus musculus with 3 samples.

Results

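The genes described here are the nuclear genes of the oxidative phosphorylation complexes, measured in 3 splenic tumours. They were taken by symbol from probes with a RefSeq mRNA accession: genes of complex I (Nduf), complex II (Sdha to Sdhd with the assembly factors named after them), complex III (Uqcr), complex IV (Cox4 to Cox8) and ATP synthase (Atp5). The rule found 96 genes among 22911 named on the array, measured by 118 probes. Another 4 protein-coding genes whose symbols fit the rule (Cox5b, Ndufb1, Ndufb4b and Ndufb4c) had no such probe among those named and were not analysed here. By role, 7 were core subunits of complex I, 29 its accessory subunits and 8 its assembly factors. Complex II with its assembly factors had 8, complex III 8, complex IV with related genes 19, and ATP synthase 17.

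Each tumour was hybridised to 1 single-colour Agilent mouse array, after Cy3 labelling of total RNA. There were 2 tumours of the genotype LSD1 × p53+/−, numbered 2 and 3 and called LSD1 tumours 2 and 3 below, and 1 tumour of the genotype p53+/−, called the p53 tumour. All 3 came from male mice of 10 weeks that carried p53 haploinsufficiency, and the cells had received no treatment. What the LSD1 element is and where it is active is not stated in the labels, which also leave unsettled whether 2 and 3 number mice or lines. The tissue label reads splenic tumour, while splenic cells are what the growth protocol says was isolated, so the RNA is that of a mixture of cells. LSD1 is a histone demethylase encoded by Kdm1a.

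Oxidative phosphorylation takes electrons from NADH through complex I and from succinate through complex II to coenzyme Q, complex III, cytochrome c and complex IV, where oxygen is reduced. The proton gradient that complexes I, III and IV build drives ATP synthase. The mitochondrial genome encodes a few central subunits, and the others are nuclear genes known to be controlled together, in part through the factors NRF1, GABPA and YY1, and raised in proliferating blood cells. Some complex IV subunits also have isoforms that are mainly made in muscle, brown fat, testis or lung.

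Levels are given as the log2 of a probe's signal over the 75th percentile of all non-control spots on its array, so that a difference of 1 is 2-fold. That percentile was 712 in LSD1 tumour 2, 554 in LSD1 tumour 3 and 608 in the p53 tumour. A signal well above background, by the scanner software's flag, was found for 52.8%, 51.5% and 55.6% of the spots of LSD1 tumour 2, LSD1 tumour 3 and the p53 tumour. Of the 96 genes, 93 were well above background on all 3 arrays. The other 3, Cox7b2, Cox8b and Cox8c, were not well above background on any array. Both LSD1 tumours are set against the same p53 array, so their differences share its error, and precision is limited by the number of arrays. Slide 2 and scan 2 held LSD1 tumour 2, while slide 1 and scan 1 held LSD1 tumour 3 and the p53 tumour. For LSD1 tumour 2, slide and tumour cannot be told apart.

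Most of these genes were higher in both LSD1 tumours than in the p53 tumour. That held for 83 of the 93 genes (89.2%), against a background of 38.9% of the 15240 genes tested, and for 69 to 85 genes under 7 other processing settings (85 of 96 where no filter was set), against 23.3% to 51.7% of all genes. Only Cox6a2 and Cox7a2l were lower in both, against 27.8% of all genes, and the other 8 differed in direction between the LSD1 tumours. A difference of at least 1.5-fold upward in both was found for 42 genes (45.2%), against 12.0% of all genes, and 1 gene was at least 1.5-fold lower in both, against 10.2%. With quantile normalization or the authors' deposited scaling the first of these counts was 19, against 10.0% and 5.78% of all genes. The median difference from the p53 tumour was 0.54 (1.45-fold) in LSD1 tumour 2 and 0.87 (1.83-fold) in LSD1 tumour 3, against 0.05 and 0.16 over all genes. In bulk tissue, more cells of a type and more RNA per cell cannot be told apart.

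The shift was mostly one-sided, and over all 93 genes its spread was smaller than over all genes tested. The differences of the middle 50% of the genes spanned 0.59 log2 units in LSD1 tumour 2 and 0.34 in LSD1 tumour 3, against 1.03 and 1.13 over all genes. Complex IV alone spanned 1.08 in LSD1 tumour 2, no less than all genes. Of the 15240 genes tested, 12812 were well above background on all 3 arrays, as all 93 were. The spread over genes of like brightness is not given, so a smaller spread is not shown to be particular to these genes. At least 1.5-fold higher were 43 genes in LSD1 tumour 2 (background 24.1%) and 83 in LSD1 tumour 3 (background 29.7%). Only 9 genes were at least 2-fold higher in both, against 4.12% of all genes: Ndufa12, Ndufa9, Ndufb6, Sdhaf3, Cox7a2, Ndufa4, Cox6c, Atp5g1 and Atp5md. At least 2-fold lower in both was Cox6a2 alone, against 5.38% of all genes. Within slide 1, LSD1 tumour 3 was below the p53 tumour for 3 of 93 genes, against 41.9% of all genes. LSD1 tumour 2, on the other slide, was below it for 9, against 47.0%.

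**Figure D1:**
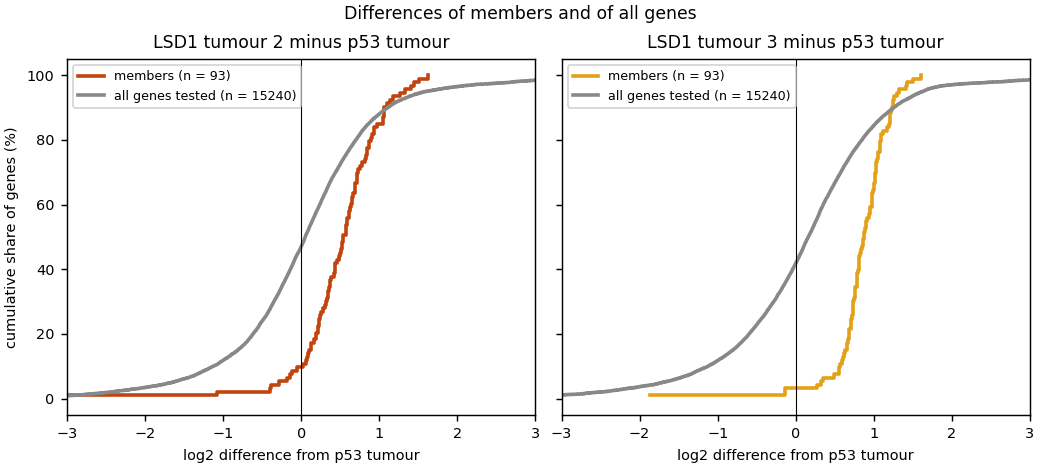
Cumulative share of genes (vertical axis, %) by log2 difference from the p53 tumour (horizontal axis) for the 93 genes above background (coloured lines) and all 15240 genes tested (grey lines), with LSD1 tumour 2 on the left and LSD1 tumour 3 on the right. The coloured lines are steeper and lie to the right, with medians of 0.54 and 0.87 against 0.05 and 0.16; Cox6a2 in LSD1 tumour 2 lies beyond the left edge.

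No single gene passed the test. Limma's adjusted p was 0.05 or above for all 93 genes and for all 15240 (0 called, 0.0%), with a lowest value of 0.967. At an unadjusted p under 0.05 limma gave 568 of 15240 genes (3.73%) and 0 of the 93. The count among these genes was higher with normexp background correction, with no filter on dim probes, and over genes above background on all arrays. The share of all genes at that level under those settings is not given here, so no background stands beside it. With 1 array against 2 the fit had 1 residual degree of freedom, it took the spread of the LSD1 tumours to hold for the single p53 tumour, and its p-values measure only the spread between these samples. The counts and medians that follow are therefore descriptions.

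The oxidative phosphorylation genes are bright, so they were also set against other genes of like brightness, a comparison added after the data were seen. Within the band of mean level from 0.37 to 6.15 that holds most of them, 67 of 73 (91.8%) were higher in both LSD1 tumours, against 45.4% of 6837 other genes. Their medians were 0.59 and 0.91 in LSD1 tumours 2 and 3, against 0.08 and 0.31 for the other genes. In that band 37 of the 73 (50.7%) were at least 1.5-fold higher in both, against 14.6% of the others.

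The promoters of these genes were searched for 3 motifs of the factors named above, on both strands, in RefSeq windows of 250 bases before to 50 after each start (GRCm38.p6). The NRF1 motif (GCGCA, any base, then GCGC) was found in 21 of the 79 genes with a window (26.6%), against 5.19% of 27025 genes. The motif AANATGGC of YY1 was found in 20 (25.3%), against 6.96%, and CCGGAAGT, bound by ETS factors such as GABPA, in 5 (6.33%), against 4.31%. In all, 44 genes (55.7%) held at least 1, against 15%, and matches of different motifs overlapped in 0 of the 84 windows of these genes. The 27025 genes are all those with a window and not the 15240 tested on the array. The shares among tested genes are not given. A match is a run of letters and not a measured binding site. The windows below are examples of each motif, printed 5′ to 3′ with the matches in capitals. Ndufb4 (chr16:37654319-37654618, minus strand), an accessory subunit of complex I, and Sdha, the flavoprotein of complex II (chr13:74350191-74350490, minus strand), each held 3 NRF1 matches, and Sdhd, a membrane anchor of the same complex (chr9:50603800-50604099, minus strand), held 1. Ndufa9 (chr6:126849095-126849394, minus strand) shows the YY1 motif and Uqcr11 (chr10:80406772-80407071, minus strand) the ETS motif.
Ndufb4: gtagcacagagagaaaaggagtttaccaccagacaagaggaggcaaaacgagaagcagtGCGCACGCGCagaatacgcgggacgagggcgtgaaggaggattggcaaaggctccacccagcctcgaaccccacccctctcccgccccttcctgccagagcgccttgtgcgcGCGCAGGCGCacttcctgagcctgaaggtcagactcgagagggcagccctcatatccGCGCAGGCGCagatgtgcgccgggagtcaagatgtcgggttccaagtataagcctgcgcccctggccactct
Sdha: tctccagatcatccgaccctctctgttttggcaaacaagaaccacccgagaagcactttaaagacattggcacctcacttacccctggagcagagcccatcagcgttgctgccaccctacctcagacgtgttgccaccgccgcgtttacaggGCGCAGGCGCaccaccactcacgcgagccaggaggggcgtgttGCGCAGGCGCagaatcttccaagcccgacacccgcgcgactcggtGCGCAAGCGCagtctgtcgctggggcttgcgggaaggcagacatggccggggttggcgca
Sdhd: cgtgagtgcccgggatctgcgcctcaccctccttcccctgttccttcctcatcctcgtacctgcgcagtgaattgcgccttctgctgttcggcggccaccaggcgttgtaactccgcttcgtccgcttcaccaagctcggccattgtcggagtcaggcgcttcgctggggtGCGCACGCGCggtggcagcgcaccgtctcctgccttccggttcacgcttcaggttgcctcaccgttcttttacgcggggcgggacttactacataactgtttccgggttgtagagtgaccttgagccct
Ndufa9: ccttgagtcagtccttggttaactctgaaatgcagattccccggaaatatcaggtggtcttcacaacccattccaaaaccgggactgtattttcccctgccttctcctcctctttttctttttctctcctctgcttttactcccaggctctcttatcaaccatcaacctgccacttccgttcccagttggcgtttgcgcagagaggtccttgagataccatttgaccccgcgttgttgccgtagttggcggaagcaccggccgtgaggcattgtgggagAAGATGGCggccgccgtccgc
Uqcr11: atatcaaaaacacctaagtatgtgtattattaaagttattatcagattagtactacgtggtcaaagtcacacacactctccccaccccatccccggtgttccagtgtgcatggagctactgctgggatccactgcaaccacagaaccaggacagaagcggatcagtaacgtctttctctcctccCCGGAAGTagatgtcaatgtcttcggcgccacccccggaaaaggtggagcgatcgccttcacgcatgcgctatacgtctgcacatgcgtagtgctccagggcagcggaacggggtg

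All 7 core subunits of complex I, which carry its flavin and iron-sulphur clusters, were higher in both LSD1 tumours, with medians of 0.34 and 0.81. Ndufv2, an iron-sulphur subunit of the NADH-binding module, had levels of 4.68 and 4.52 in LSD1 tumours 2 and 3 and 3.62 in the p53 tumour (2.08- and 1.87-fold higher). Its LSD1 values lay close together and above the p53 value. Ndufs8, which holds iron-sulphur clusters, had 4.33 and 5.24, against 4.27 in the p53 tumour. Ndufs7, the iron-sulphur subunit next to the quinone, had 4.44 and 4.97, against 4.21. In these last genes LSD1 tumour 2 lay near the p53 tumour and LSD1 tumour 3 was 1.96- and 1.69-fold above it. The direction in LSD1 tumour 2 held under 5 of 8 settings for Ndufs8 and 7 of 8 for Ndufs7, and 4 of the 7 core genes were higher in both tumours under all 8.

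Of the 29 accessory subunits, 28 were higher in both LSD1 tumours, 15 of them by at least 1.5-fold, with medians of 0.61 and 0.89. Ndufa12, an accessory subunit added late in assembly, had 5.06 and 5.09 in LSD1 tumours 2 and 3, against 3.80 in the p53 tumour (2.41- and 2.45-fold). Ndufa9, which sits near the quinone channel, had 3.52 and 3.66, against 2.42 (2.15- and 2.36-fold). The LSD1 tumours were almost level with each other in both genes, and both were above the p53 tumour. Ndufa3, a small membrane subunit, had 5.22 and 5.69, against 5.10, and its direction in LSD1 tumour 2 held under 6 of 8 settings. Ndufa2, of the NADH-binding module, was the only accessory gene with opposite directions: 4.78 in LSD1 tumour 2 and 5.60 in LSD1 tumour 3, against 4.93. It was 1.11-fold lower in the first and 1.59-fold higher in the other, and these directions held under all 8 settings.

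Complex I is put together with assembly factors that are not part of the finished enzyme, and 7 of its 8 factors were higher in both LSD1 tumours, with medians of 0.60 and 0.76. Ndufaf6 had 0.63 and 0.05 in LSD1 tumours 2 and 3, against −0.81 in the p53 tumour (2.73- and 1.81-fold). Ndufaf2, a relative of Ndufa12, had 1.07 and 1.67, against 0.46 (1.52- and 2.31-fold). Both LSD1 values were above the p53 value in each gene, although the higher one was a different tumour. Ndufaf5, which modifies Ndufs7, had 0.17 and 0.01, against −0.35, and in LSD1 tumour 3 its direction held under 7 of 8 settings. Ndufaf3, an early assembly factor, had −0.22 and 1.0, against 0.18, so the p53 tumour lay between the LSD1 tumours.

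**Figure D2:**
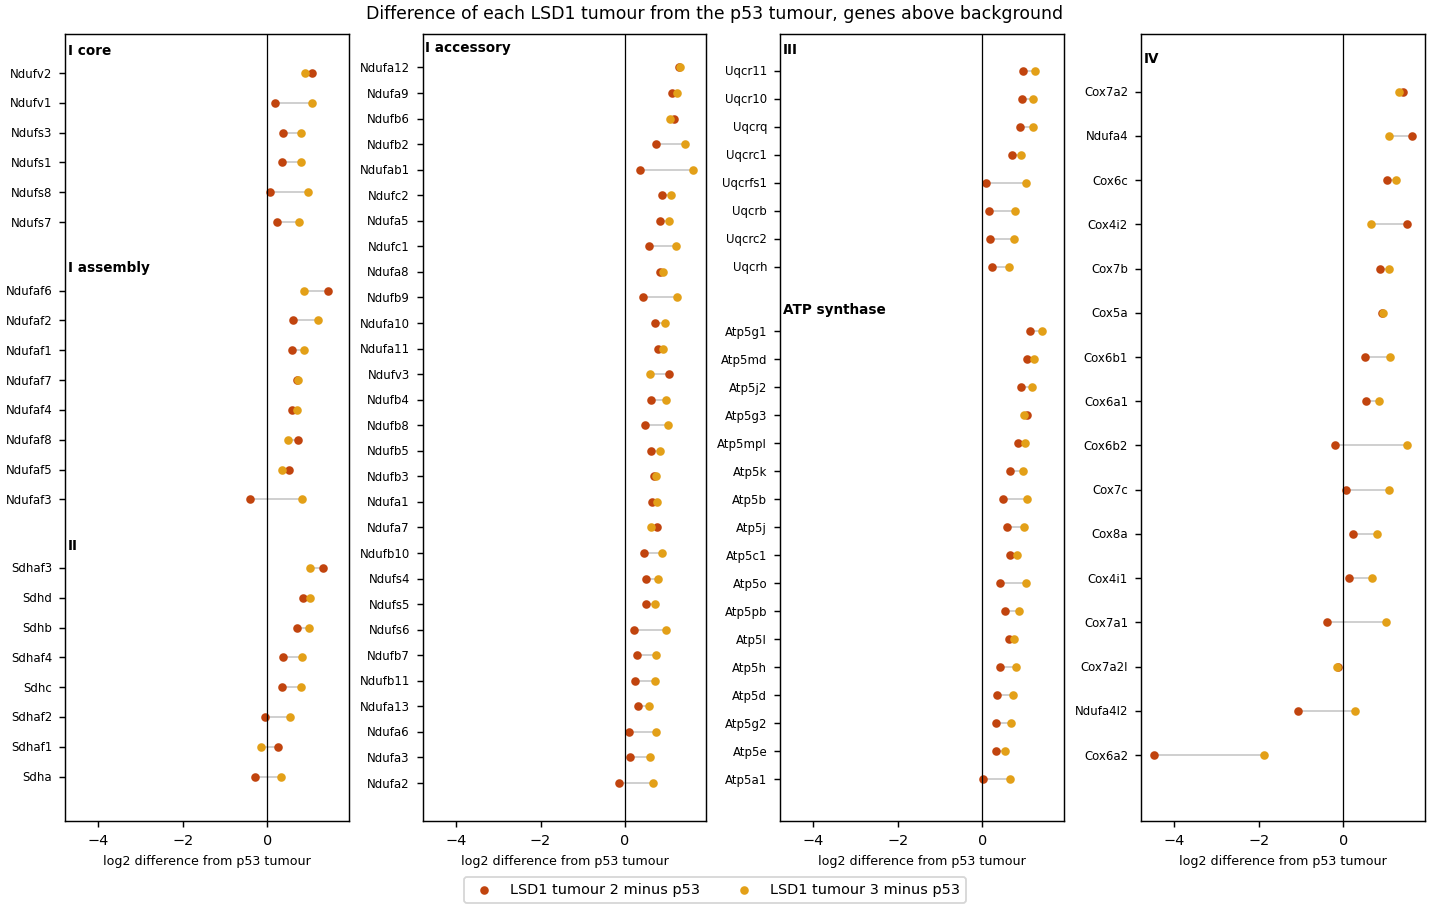
Log2 difference from the p53 tumour (horizontal axis) of the genes above background that are reported singly (rows, grouped by complex and sorted by the mean of both differences), with LSD1 tumour 2 in red and LSD1 tumour 3 in yellow, 1 array each. Points to the right of 0 are higher than in the p53 tumour, as for most genes in both LSD1 tumours, and Cox6a2 stands alone at the left.

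Complex II, which joins the tricarboxylic acid cycle to the respiratory chain and is encoded by nuclear genes alone, had 5 of 8 genes higher in both LSD1 tumours, with medians of 0.36 and 0.81. Sdhd, a membrane anchor, had 4.61 and 4.79 in LSD1 tumours 2 and 3, against 3.77 in the p53 tumour (1.80- and 2.03-fold). Sdha, the flavoprotein that oxidises succinate, had 2.97 and 3.58, against 3.26. Thus Sdhd was higher in both LSD1 tumours, while Sdha lay 1.22-fold below the p53 tumour in LSD1 tumour 2 and 1.25-fold above it in LSD1 tumour 3. In LSD1 tumour 3 the direction of Sdha held under 5 of 8 settings. Of the assembly factors, Sdhaf3, which helps to mature the iron-sulphur subunit, had a low signal of −1.74 and −2.04, against −3.06 (2.51- and 2.03-fold). Sdhaf1, with the same role, had 2.11 and 1.71, against 1.85. It lay 1.19-fold above the p53 tumour in LSD1 tumour 2 and 1.1-fold below it in LSD1 tumour 3. Sdhaf2, which attaches the flavin to Sdha, also had opposite directions, and the differences were small (1.04-fold lower and 1.46-fold higher).

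All 8 subunits of complex III were higher in both LSD1 tumours, with medians of 0.46 and 0.97. Uqcr11 and Uqcr10, small subunits of the complex, were the furthest from the p53 tumour. Uqcr11 had 5.66 and 5.95 in LSD1 tumours 2 and 3, against 4.69 (1.95- and 2.39-fold). Uqcr10 had 5.99 and 6.26, against 5.06 (1.91- and 2.30-fold). Uqcrc2, a core protein of the complex, had 4.12 and 4.69, against 3.94, and Uqcrh, the hinge protein that contacts cytochrome c, had 6.59 and 7.0, against 6.37. For Uqcrc2 the direction in LSD1 tumour 2 held under 6 of 8 settings, and 5 of the 8 complex III genes were higher in both tumours under all of them.

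The 17 ATP synthase genes were higher in both LSD1 tumours without exception in the main setting, and 16 were so under all 8 settings. Their medians were 0.57 and 0.95. The 3 genes of subunit c, which encode the same mature ring protein with different import sequences, differed in size of shift. Atp5g1 had 5.67 and 5.95 in LSD1 tumours 2 and 3, against 4.53 in the p53 tumour (2.19- and 2.67-fold). Atp5g3 had 6.32 and 6.26, against 5.26 (2.08- and 2.00-fold). Atp5g2 had 6.15 and 6.51, against 5.83 (1.25- and 1.60-fold). The values of the LSD1 tumours lay above the p53 value for each of the 3, with the smallest fold for Atp5g2 in both tumours. Atp5md, a small membrane subunit, was 2.08- and 2.33-fold higher. Of the catalytic head, Atp5b, the beta subunit, had 6.48 and 7.04, against 5.99 (1.41- and 2.08-fold). Atp5a1, the alpha subunit, had 5.89 and 6.52, against 5.87, and its direction in LSD1 tumour 2 held under 4 of 8 settings. These values rest on 1 of its 2 probes, with log2 differences of 0.02 and 0.65. The other probe, dimmer but well above background on all 3 arrays, differed by 0.32 and 1.21. That was the widest gap between probes of a gene, 0.43 in the mean difference. By the probes used, Atp5a1 had the smallest mean shift and Atp5e, the epsilon subunit, the next smallest (1.26- and 1.46-fold).

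Complex IV held the widest range of differences. Of 16 genes above background, 11 were higher in both LSD1 tumours, 2 were lower in both and 3 had opposite directions, with medians of 0.38 and 0.97. Cox7a2, a widely expressed subunit, had 6.08 and 5.99 in LSD1 tumours 2 and 3, against 4.67 in the p53 tumour (2.66- and 2.50-fold). It had the largest upward mean difference of the 93 genes, 1.37 ± 0.48 (SE; limma, adjusted p = 0.967). Ndufa4, first placed in complex I and now counted with complex IV, had 4.90 and 4.37, against 3.28 (3.08- and 2.14-fold). Cox7a2l, which helps to join complexes III and IV into supercomplexes and is named here after its values were seen, had 5.89 and 5.86, against 6.0. The gap of Cox7a2l to the p53 tumour was 1.08- and 1.1-fold downward, while Cox7a2 and Ndufa4 were above it in both LSD1 tumours.

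The widely expressed isoforms and the isoforms known from particular tissues did not move alike. Assembly factors and Cox7a2l, counted as a related gene, are left out of the next count, while Ndufa4l2, also a related gene, is kept with the tissue-restricted isoforms. Of the 75 subunits without the tissue-restricted isoforms, 73 were higher in both LSD1 tumours. None of the 75 was lower in both, which rests on leaving out Cox7a2l, a gene lower in both. Of the 8 tissue-restricted isoforms, 5 were above background, of which 1 was higher in both, 1 lower in both and 3 opposite. These 5 were also dimmer, with a median level of −0.51 in the p53 tumour, against 4.46 for the 75. The widely expressed counterparts Cox4i1, Cox6a1, Cox6b1, Cox7a2, Cox7b, Cox8a and Ndufa4 were higher in both LSD1 tumours, by 1.09- to 3.08-fold in LSD1 tumour 2 and 1.60- to 2.50-fold in LSD1 tumour 3. For Cox4i1 the direction in LSD1 tumour 2 held under 6 of 8 settings.

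Cox6a2, the isoform of heart and skeletal muscle, had −3.31 and −0.69 in LSD1 tumours 2 and 3, against 1.18 in the p53 tumour. The level in LSD1 tumour 2 was near the lowest one well above background on that array, −3.86. Over the 8 settings Cox6a2 differed there from the p53 tumour by −4.7 to −3.5. It was 22.5- and 3.64-fold lower, the largest difference among the 93 genes, and it was lower in both under all 8 settings (limma, adjusted p = 0.967). Its counterpart Cox6a1, the brightest of these genes, had 7.73 and 8.05, against 7.2 (1.44- and 1.80-fold higher). Of 11 markers of striated muscle, Ckm, Mb and Myh7 were not well above background on any array. The 8 others were well above it on at least 1 array, and 6 of them on all 3. Of the 8, 2 were higher in both LSD1 tumours, 2 were lower in both and 4 had opposite directions. Myh6, counted as higher in both, was well above background in LSD1 tumour 2 alone, so its direction in LSD1 tumour 3 is not resolved. The 2 lower in both, like Cox6a2, were Myh2 and Des. Myh2 was well above background in the p53 tumour alone (at least 2.13- and 2.15-fold lower), and Des was 1.54- and 1.60-fold lower. The summed level of those 8, in multiples of the 75th percentile, was 3.76 and 13.2 in LSD1 tumours 2 and 3, against 4.38 in the p53 tumour. That order differs from that of Cox6a2, but the sum in LSD1 tumour 3 came mostly from Tnni2 and Tnnt3, at log2 levels of 3.25 and 1.42. The summed B cell and macrophage markers given below had the same order of tumours as Cox6a2. Among the single macrophage markers, only Adgre1 and Csf1r had that order. Vcam1, Cd163 and Mertk were lowest in LSD1 tumour 3, and Cd68 was highest there. The part of the muscle, B cell and macrophage markers in the result was not tested.

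Cox7a1, an isoform of muscle and brown fat, had −2.16 in LSD1 tumour 2 and −0.76 in LSD1 tumour 3, against −1.77 in the p53 tumour. Cox6b2, an isoform known from testis, had 0.58 and 2.27, against 0.76. Both were lower than the p53 tumour in LSD1 tumour 2 (1.31- and 1.14-fold) and higher in LSD1 tumour 3 (2.01- and 2.84-fold), under all 8 settings. Ndufa4l2, a relative of Ndufa4 induced by hypoxia, had −3.35 and −2.0, against −2.27, and its direction in LSD1 tumour 3 held under 6 of 8 settings. Cox4i2, the isoform of lung, was the exception with 1.0 and 0.14, against −0.51 (2.84- and 1.57-fold higher). Of 7 fat markers, listed for brown fat but not all particular to it, Ucp1, Dio2, Elovl3 and Plin1 were not well above background on any array. Fabp4 was 7.12- and 2.45-fold higher in LSD1 tumours 2 and 3. Adipoq was above background in LSD1 tumour 2 alone (at least 5.94-fold higher there) and Cidea in LSD1 tumour 3 alone (at least 1.87-fold higher there). The part of these markers in the results for Cox7a1 was not tested.

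**Figure D3:**
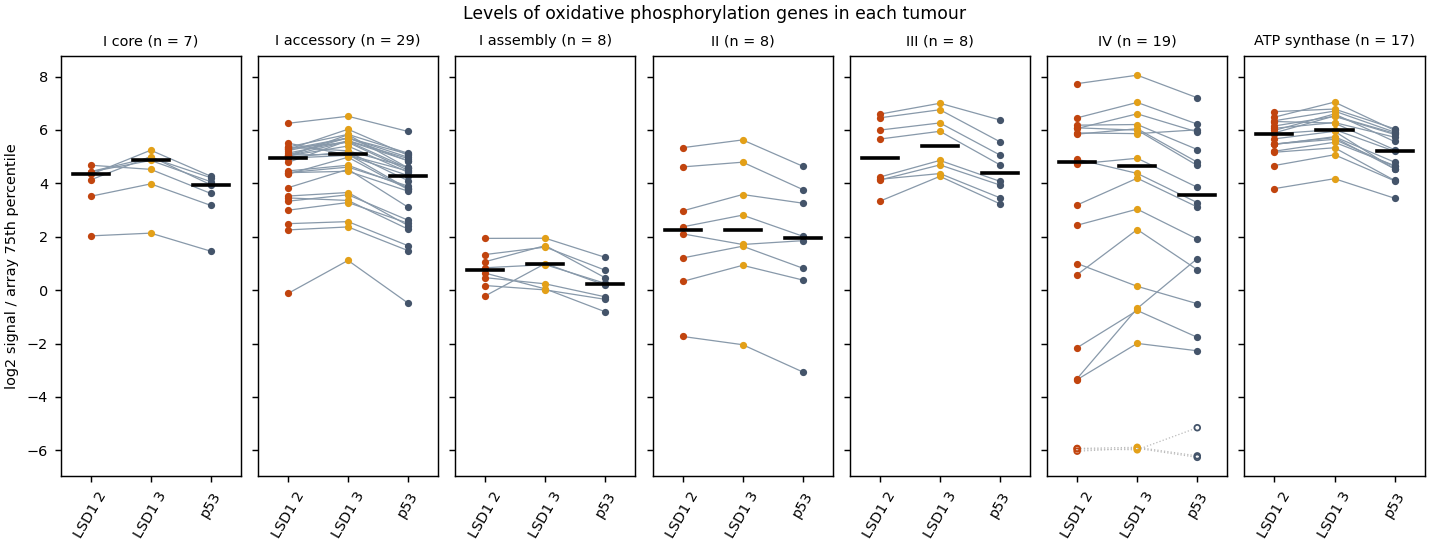
Levels (vertical axis, log2 signal over the array's 75th percentile) of the 96 genes in LSD1 tumour 2, LSD1 tumour 3 and the p53 tumour, 1 panel per class, with a grey line per gene. Black bars are class medians over genes above background, and open circles are the 3 complex IV genes not above background. Most lines slope down toward the p53 tumour, as for the 83 genes higher in both LSD1 tumours.

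LSD1 tumour 2 was above LSD1 tumour 3 for 14 of the 93 genes (15.1%), against 44.2% of all genes, and the median difference of tumour 2 minus tumour 3 was −0.29, against −0.10 over all genes. The count was 31 with quantile normalization (all genes 48.1%), 25 in the authors' deposited scaling (all genes 52.8%) and 35 with the percentile taken over detected probes (all genes 56.5%). At least 1.5-fold higher in LSD1 tumour 2 than in LSD1 tumour 3 were 2 genes, Cox4i2 (1.81-fold) and Ndufaf6 (1.5-fold), against 20.0% of all genes. At least 1.5-fold higher in LSD1 tumour 3 were 23 (24.7%), against 26.2% of all genes, a share near the background. The largest of these were Cox6a2 (6.18-fold), Cox6b2 (3.23-fold), Cox7a1 (2.63-fold), Ndufa4l2 (2.56-fold) and Ndufab1 (2.36-fold). Ndufab1 is the mitochondrial acyl carrier protein and a complex I subunit, and had −0.13 and 1.11 in LSD1 tumours 2 and 3, against −0.49 in the p53 tumour. In the other direction, with LSD1 tumour 2 above LSD1 tumour 3, Ndufv3 differed by 1.36-fold, Ndufa4 by 1.44-fold and Sdhaf1 by 1.32-fold.

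The class medians, taken less the median of all genes, were above 0 in both LSD1 tumours for each of the 7 classes under all 8 settings. Over the 7 alternatives, that of all members was 0.31 to 0.53 in LSD1 tumour 2 and 0.46 to 0.73 in LSD1 tumour 3. For complex IV it was between 0.02 and 0.43 in LSD1 tumour 2. Of the 93 genes, 68 were higher in both LSD1 tumours under all 8 settings: 4 complex I core subunits, 23 accessory subunits and 6 assembly factors, 5 genes of complex II, 5 of complex III, 9 of complex IV and 16 of ATP synthase. The share of all genes higher in both under all 8 settings is not given here. Over the 15240 genes tested it can be no more than the lowest share under a single setting, 23.3% in the authors' table. Among the 12812 genes above background on all 3 arrays, as the 93 were, this limit may be higher. Where a gene had more than 1 probe, as 20 did, all its probes had the same sign of the mean difference, and they differed from each other by a median of 0.15 log2 units.

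**Figure D4:**
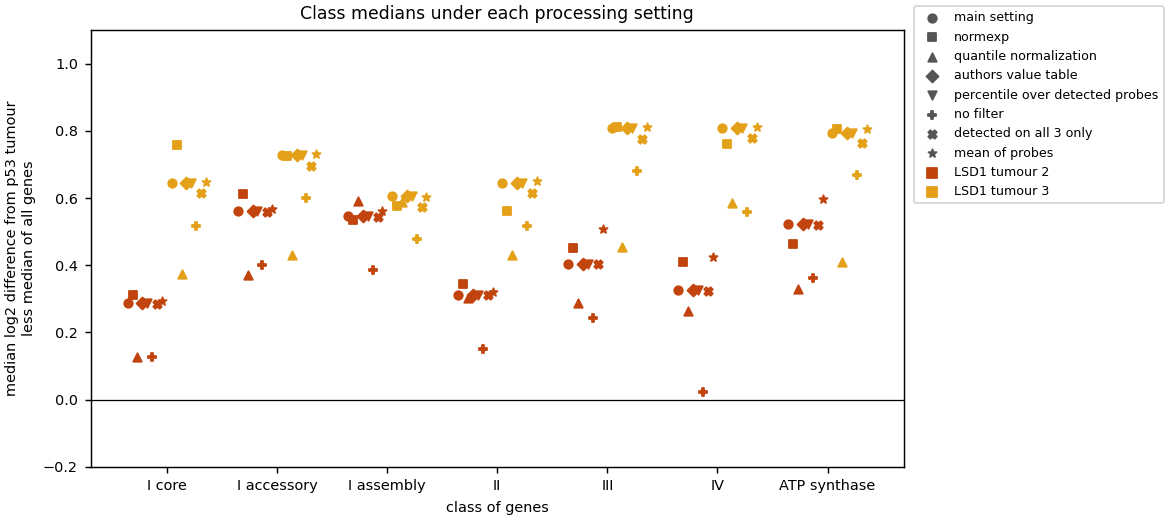
Median log2 difference from the p53 tumour less the median of all genes (vertical axis) for the 7 classes (horizontal axis), with LSD1 tumour 2 in red, LSD1 tumour 3 in yellow and a marker shape for each of the 8 processing settings. All points lie above 0, and the lowest is complex IV in LSD1 tumour 2 at 0.02 without a filter on dim probes.

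The differences were also set out by promoter motif. The 21 genes with an NRF1 match had medians of 0.59 and 0.89 in LSD1 tumours 2 and 3, the 20 with YY1 0.49 and 0.87, and the 5 with ETS 0.37 and 0.80. The 33 genes above background whose window held none of the 3 had 0.65 and 1.0. Among the genes whose promoters are shown, Ndufb4 had 5.03 and 5.40 in LSD1 tumours 2 and 3, against 4.42 in the p53 tumour (1.53- and 1.97-fold). Sdha, with as many NRF1 matches, was on opposite sides of the p53 tumour, as given above. Of the 9 genes at least 2-fold higher in both, Ndufa9 had a YY1 match and Sdhaf3 an NRF1 match. Ndufa12, Ndufb6, Cox7a2, Ndufa4, Atp5g1 and Atp5md had a window with none of the 3 motifs, and Cox6c had no window.

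Other genes of the respiratory chain and of mitochondria were compared in lists chosen with earlier results of these data known. Of 31 respiratory chain genes outside the symbol rule, 26 were higher in both LSD1 tumours, with medians of 0.52 and 0.54. Cycs, which encodes cytochrome c, had 5.05 and 5.48 in LSD1 tumours 2 and 3, against 3.76 in the p53 tumour (2.44- and 3.30-fold). Surf1, a complex IV assembly factor, had 2.55 and 3.05, against 2.92. Of 13 coenzyme Q synthesis genes, 8 were higher in both and 2 lower, from Coq7, a hydroxylase of the pathway (1.63- and 3.15-fold higher), to Coq8b, an atypical kinase (1.26- and 1.27-fold lower). Of 16 genes of the tricarboxylic acid cycle and pyruvate dehydrogenase, 14 were higher in both, with medians of 0.33 and 0.65. Suclg2, a subunit of succinyl-CoA ligase, was 1.93- and 3.44-fold higher, and Idh3g, of isocitrate dehydrogenase, 1.14-fold lower and 1.33-fold higher.

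Genes of the machinery that makes and imports mitochondrial proteins were also mostly higher in both LSD1 tumours. Of the large subunit of the mitochondrial ribosome, 45 of 49 genes were higher in both LSD1 tumours (medians 0.59 and 0.97), and of the small subunit 29 of 29 (0.63 and 0.94). Mrps22 was 3.52- and 2.59-fold higher, and Mrpl24 was 1.1-fold lower and 1.01-fold higher. All 20 import genes were higher in both in the main setting and 18 to 20 under the alternatives, with medians of 0.77 and 1.05. Timm8a1, a carrier of the intermembrane space, was 2.54- and 2.88-fold higher. The 14 genes of mitochondrial DNA maintenance and transcription were mixed, with 8 higher in both, 4 lower and medians of 0.21 and 0.07. Ssbp1, which coats single-stranded mitochondrial DNA, was 2.01- and 2.05-fold higher, while Polg, the catalytic subunit of its polymerase, was 1.74- and 1.13-fold lower.

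The 10 regulators of mitochondrial biogenesis were also mixed: 6 were higher in both LSD1 tumours and 2 lower, with medians of 0.11 and 0.38. Myc, a growth-promoting transcription factor, had 2.18 and 1.25 in LSD1 tumours 2 and 3, against 0.14 in the p53 tumour (4.10- and 2.16-fold). Nrf1 had 1.36 and 1.67, against 0.88 (1.40- and 1.72-fold). Esrra, a nuclear receptor that acts with the coactivator Ppargc1a, had 2.07 and 2.29, against 2.89 (1.77- and 1.52-fold lower). These 3 genes kept their directions in both tumours under all 8 settings. Ppargc1a was well above background in the p53 tumour alone, and was at least 1.16- and 1.17-fold lower in LSD1 tumours 2 and 3, as a bound against the lowest level well above background. Gabpa, Ppargc1b and Tfam, the packaging factor of mitochondrial DNA, lay within 1.27-fold of the p53 tumour, and their directions turned with the scaling.

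The tumours also differed in markers of cell type and state, whose part in the shift of the oxidative phosphorylation genes was not tested. All 10 proliferation genes were higher in both LSD1 tumours, with summed levels of 117 and 242 in LSD1 tumours 2 and 3, against 75.8 in the p53 tumour. The neutrophil and precursor list was higher in both for all 8 genes (292 and 272, against 145). All 8 B cell markers were lower in both (38.8 and 152, against 253). T cell markers were higher in LSD1 tumour 2 for 7 of 8 genes and in LSD1 tumour 3 for none (248 and 48.0, against 86.6). Erythroid markers were higher in LSD1 tumour 3 for 8 of 8 and in LSD1 tumour 2 for 3 (100.2 and 332, against 139). Of 6 macrophage markers, 4 were lower in both (107 and 118, against 136). All markers of these 6 lists were above background on all arrays. Proliferation had the same order of tumours as the median of the oxidative phosphorylation genes, with LSD1 tumour 3 highest and the p53 tumour lowest.

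**Figure D5:**
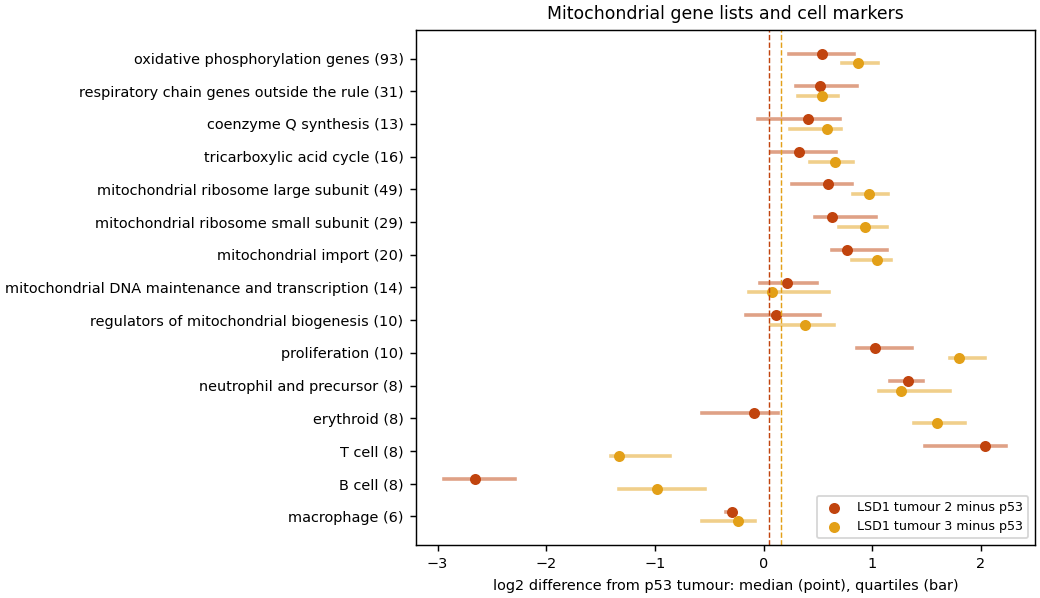
Median log2 difference from the p53 tumour (points) with quartiles (bars) for the oxidative phosphorylation genes, 8 other mitochondrial lists and 6 marker lists (number of genes in brackets), with LSD1 tumour 2 in red, LSD1 tumour 3 in yellow and dashed lines at the medians of all genes. The mitochondrial ribosome and import lists lie to the right of the dashed lines, and the T cell and erythroid lists differ in sign between the LSD1 tumours.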

How the data were processed

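Single-colour arrays of 3 splenic tumours were deposited as scanner output. The software was Agilent Feature Extraction 11.5.1.1, per the submitters' processing notes. Its processed signal was used, an intensity already corrected for background and spatial trend within each array, per the file headers. Median spot and local background intensities and per-spot flags were deposited in the same output and used for 1 alternative, where mean signals had been planned, and for filtering. A second deposited table held these intensities times 1 factor per array (0.779 in LSD1 tumour 2, 0.902 in LSD1 tumour 3 and 1.06 in the p53 tumour, found by comparison; column medians 54.2, 43.5 and 64.2), and what the authors set the factors on is not given in the sources used here.

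Outlier spots were left out, spots of a probe averaged, and log2 signals taken relative to each array's 75th percentile. Probes were named through RefSeq accessions in a table of assembly GRCm38.p6 (32993 of 56605 non-control probes), used for names and promoters only, since the array's own build is mm9. For each gene the probe of highest mean level was taken and tested if well above background on at least 1 array. Cross-hybridisation with pseudogenes was not tested. Limma 3.58.1 in R 4.3.3 (lmFit, eBayes, Benjamini-Hochberg over all genes, threshold 0.05) compared the genotypes, and its steps were tested on simulated data. The members, lists, motifs and rules were chosen with earlier results of these data known. Genes named were the 2 highest and lowest per class, the 5 furthest apart between the LSD1 tumours in either direction, the 5 brightest, the isoform pairs and subunit c genes, and the extremes of the other lists with 7 regulators. Of these, 1 gene is not reported here. Any other gene was named after its values were seen. The alternatives were normexp (offset 50), quantile normalization, the authors' table, the percentile over detected probes, 2 other filters, the mean over probes, leaving out each LSD1 tumour, and the slide as a block.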

Additional observations from a re-analysis of the deposited data

How the results depend on the processing

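The count of genes higher in both LSD1 tumours stayed within 1.5 times its main value under all alternatives. At least 1.5-fold higher in both were 42 genes in the main setting, 19 with quantile normalization, 19 in the authors' table and 22 with the percentile over detected probes (all genes 12.0%, 10.0%, 5.78% and 6.83%). At least 2-fold higher in both were 9 in the main setting, against 4.12% of all genes. Fewer were so with these alternatives, for which the share of all genes at 2-fold is not given. At least 1.5-fold higher in LSD1 tumour 3 than in LSD1 tumour 2 were 23 in the main setting, a share near the 26.2% of all genes. The other way there were 2, against 20.0% of all genes. With the same 3 alternatives these counts were 13, 13 and 12, and the other way 4, 4 and 5, with 1 under normexp. The share of all genes under those alternatives is not given, so the changes in count are not read as particular to these genes. Lower in both were 2 genes in the main setting, against 27.8% of all genes. There were 4 in the authors' table and with the percentile over detected probes, where the share of all genes is not given. Unadjusted limma p under 0.05 was reached by 0 genes, 8 with normexp, 21 of 96 with no filter and 3 over genes above background on all arrays. Less the median of all genes, the median of the genes was 0.46 in LSD1 tumour 3 with quantile normalization (main 0.71) and 0.31 in LSD1 tumour 2 with no filter (main 0.49). The mean over both tumours was 0.40 (quantile) and 0.50 (no filter) for accessory subunits (main 0.64), 0.37 (quantile) for ATP synthase (main 0.66) and 0.43 (no filter) for complex I assembly factors (main 0.58). The authors' table put the median of all genes at −0.16 and −0.20 in LSD1 tumours 2 and 3. With LSD1 tumour 3 alone, which is also the comparison within slide 1, 83 genes were at least 1.5-fold and 32 at least 2-fold higher. Of all genes, 29.7% were at least 1.5-fold higher there. With LSD1 tumour 2 alone these counts were 43 and 14, with 24.1% of all genes at least 1.5-fold higher. In LSD1 tumour 2, 9 genes were lower than in the p53 tumour, against 47.0% of all genes. The share of all genes at 2-fold in a single tumour is not given. The counts of 32 and 14 therefore have no background and are not read as particular to these genes. These single-tumour comparisons have no residual degrees of freedom and no test. The mean difference of both tumours turned below 0 for Sdha (−0.046 normexp, −0.28 quantile, −0.27 authors' table, −0.21 detected-probe percentile; main 0.02), Sdhaf1 (−0.12, −0.23 and −0.17 in the last 3), Idh3g (−0.25, −0.18 and −0.11), Ndufa2 (−0.138 and −0.026, quantile and authors' table), Ndufa3 (−0.025, quantile), and, in the authors' table and with the detected-probe percentile, Gabpa (−0.21, −0.15), Ndufaf3 (−0.082, −0.020), Ppargc1b (−0.25, −0.19) and Tfam (−0.071, −0.009). The cause was not tested. No paired analysis was possible because the genotypes share no replicate number.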
